A study of Mus musculus with 9 samples.

Results

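The genes described here are the nuclear genes for mitochondrial ribosomal proteins (symbols Mrpl for the large subunit and Mrps for the small subunit), for the protein translocases of the inner and outer mitochondrial membrane (Timm and Tomm) and for the mitochondrial carrier family (Slc25), together with Immp1l. They were chosen by symbol, among array features annotated to 1 gene, with a value on at least 2 arrays of each group. The array carried 51 such genes on 70 features, and 49 genes on 66 features met the condition, among 4775 annotated genes in all. The 49 genes were 15 Mrpl, 12 Mrps, 5 Timm, 5 Tomm and 11 Slc25 genes and Immp1l. Mrpl19 and Mrpl41 were left out because they had values on 1 and 0 old arrays. Features of a gene were averaged; 12 genes had several features and 37 had 1.

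The mitochondrial ribosome translates the few proteins that mitochondrial DNA encodes, all of them subunits of the respiratory chain and ATP synthase, while its own proteins are encoded in the nucleus and imported. Import runs through the TOM complex of the outer membrane and the TIM complexes of the inner membrane, helped by small Tim chaperones between the membranes. The inner membrane peptidase, of which IMMP1L is a subunit, removes targeting signals from some imported proteins. SLC25 carriers move nucleotides, phosphate, amino acids and organic acids across the inner membrane, apart from a few members that sit in other membranes.

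The data are log ratios from 2-colour expression arrays, each setting a castrated C57BL/6 mouse against a sham-operated one, with surgery at 7 weeks of age in every pair. There were 3 groups of 3 arrays: old mice of 59 weeks, whose specimens are labelled bone marrow, young bone at 17 weeks and young bone marrow at 17 weeks, from femur, tibia and humerus. Each replicate is a different pair of mice by the design text, but nothing says whether 1 pair gave both the bone and the marrow of the young groups. The marrow is said to have been taken apart from the bone in the young mice, and nothing is said on this point for the old mice; the extraction protocol, given alike for all samples, speaks of pulverized bone. Ratios hold no expression levels, so the labelled tissues could not be checked against the level of their markers, and levels of 2 genes are not compared. In ratios of bulk tissue, fewer cells of a type and less RNA per cell cannot be told apart.

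The ratios were read as log2, although the log base is not stated and natural logs are possible. They were read as castrated over sham on every array, because the labels describe all 9 arrays as castrated against sham; that direction is likely, and no source used here states it. RNA of the castrated mouse was labelled with Cy5 on 6 arrays; on 3 swapped arrays (old replicate 2, young bone replicate 3 and young marrow replicate 2) it carried Cy3. Under the other possible reading, Cy5 over Cy3, called the channel reading below, the values of the swapped arrays change sign. A value above 0 therefore stands for higher in castrated than in sham-operated mice on the 6 unswapped arrays under both readings, and on the swapped arrays under the main reading alone. As deposited, the median of 7 B lymphocyte markers was 0.93, 0.90 and 0.92 on the swapped arrays of old specimens, young bone and young marrow, and between 0.72 and 1.15 on the unswapped ones. The median of 6 granulocyte markers lay between -0.77 and -0.26 on all 9 arrays. The channel reading would turn the signs of both medians on exactly the 3 swapped arrays, with B lymphocyte estimates of -0.02 in old specimens, -0.03 in young bone and 0.11 in young marrow. It is given below as an alternative, under which 0.0% of all genes were called in each comparison. Arrays carried 8290 to 10995 values. Old replicate 1 stood apart, with an SD across all features of 0.454 against 0.192 to 0.294 on the other 8 arrays. Its median over all genes was -0.16, against -0.07 to 0.04.

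The response to castration was estimated per gene in a linear model over all 9 arrays with group and dye as terms, tested with limma and adjusted with the Benjamini-Hochberg method over all 4775 genes. A gene is said to rise or fall where the adjusted p was under 0.05. The estimate weights the swapped array of a group differently from the other arrays, so it is not the plain mean of 3 arrays. Standard errors (SE) use a spread pooled over all 9 arrays and moderated across genes. The n beside an SE counts the arrays behind the estimate, and the SE is not the spread of those arrays alone.

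In old specimens most of the mitochondrial genes had lower values in castrated than in sham-operated mice by a small margin, but 1 of 49 passed the test. The median estimate was -0.14 over the 49 genes and -0.06 over all genes, and 41 of 49 estimates lay below 0 (83.7%, against 63.9% of all genes). The medians were -0.20 for Mrpl, -0.18 for Mrps, -0.22 for Tomm, -0.10 for Slc25 and 0.00 for Timm. Below 0 lay 14 of 15 Mrpl, 11 of 12 Mrps, 5 of 5 Tomm, 9 of 11 Slc25 and 2 of 5 Timm estimates. The call was Mrps10, which fell; 1.4% of all genes were called in old specimens, and 0.398% fell. At an unadjusted p under 0.05 there were 18 members, all with estimates below 0 (36.7% of members, against 11.4% of all genes in that direction). None of the 49 members rose in old specimens, where 48 of all 4775 genes rose.

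In young bone the median was -0.05, against -0.01 over all genes, and in young marrow it was 0.06, against 0.02. Estimates below 0 were 33 of 49 in young bone (67.3%, against 51.6% of all genes) and 13 of 49 in young marrow (26.5%, against 43.8%). No member was called in young bone, where 0.754% of all genes were called, or in young marrow, where 1.72% were. At an unadjusted p under 0.05 the members numbered 4 in young bone and 2 in young marrow, beside 10.6% and 12.4% of all genes. By subfamily the young bone medians were -0.09 for Mrpl, -0.04 for Mrps, -0.09 for Timm, -0.04 for Tomm and 0.02 for Slc25. In young marrow they were 0.06 for Mrpl, 0.05 for Mrps, 0.10 for Timm, 0.07 for Tomm and 0.02 for Slc25. All 10 Timm and Tomm estimates were at or above 0 in young marrow, and all 5 Timm estimates were below 0 in young bone.

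**Figure D1:**
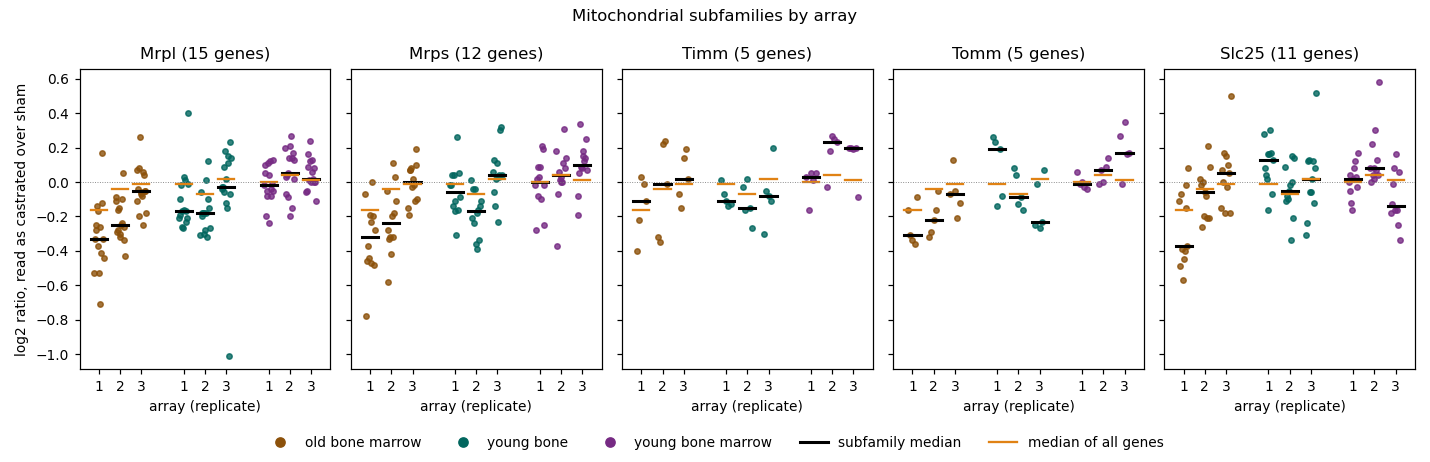
Log2 ratios of the members on each array, 1 panel per subfamily, with arrays of old specimens, young bone and young bone marrow from left to right. Points are genes, black bars are subfamily medians and orange bars are medians of all genes; the Mrpl median is -0.33, -0.25 and -0.05 on the 3 old arrays and between -0.02 and 0.05 on the young marrow arrays.

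The old arrays did not carry this shift evenly. The median over the 49 members was -0.28 on old replicate 1, -0.20 on old replicate 2 and -0.03 on old replicate 3, where the medians over all genes were -0.16, -0.04 and -0.01. Members below 0 made up 89.8%, 81.6% and 55.1% on these arrays, against 69.2%, 55.6% and 51.6% of all genes. Old replicate 3 thus lay close to the background of all genes. Of the 49 members, 43 were lower on replicate 1 than on replicate 3, and 38 lower on replicate 2 than on replicate 3. The same order was not counted over all genes, whose medians were also lower on replicates 1 and 2, so these 2 counts have no background.

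The count of members at an unadjusted p under 0.05 with an estimate below 0 in old specimens followed these arrays. It was 2 without old replicate 1 (4.08%, against 5.57% of all genes), 4 without old replicate 2 (8.16%, against 5.38%) and 21 without old replicate 3 (42.9%, against 19.2%). Without old replicate 3, 7 members were called in old specimens, among 11.5% of all genes. With every array centred on its own median it was 7 (14.3%, against 6.66%), on the 6 unswapped arrays 6 (12.2%, against 9.25%), and under the channel reading 0 (0.0%, against 1.78%).

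Mrps10 encodes a protein of the small subunit. The gene lies on chr17:47368887-47381418 (mouse build GRCm38.p6, RefSeq), and 1 feature measured it. Its log2 ratios were -0.78, -0.58 and -0.19 on the old arrays, -0.02, -0.21 and -0.06 in young bone and -0.28, -0.37 and -0.08 in young marrow. All 9 values were below 0, which held for 1 of 49 members and 2.95% of all genes, and the lowest were those of old replicates 1 and 2. The SD of the 3 old values themselves was 0.3. The old estimate was -0.53 ± 0.12 (SE, n = 3 arrays; adjusted p = 0.047), a ratio of 0.69. The average over the 3 groups was -0.30 ± 0.07 (SE, n = 9 arrays; adjusted p = 0.024), a ratio of 0.81. The estimate in young marrow was -0.26 (adjusted p = 0.39), and the difference of old minus young bone was -0.42 ± 0.16 (SE; adjusted p = 0.62). The old call was kept without young bone replicate 2 (adjusted p = 0.049) and without old replicate 3 (0.0087); it was lost without any other single array, with adjusted p between 0.058 and 0.39. It was also lost with centred arrays (0.05), in a fit per feature (0.086) and on the unswapped arrays (0.23). The average call was lost without young bone replicate 2 or 3, young marrow replicate 1 or 2, or old replicate 2, with adjusted p between 0.055 and 0.21, and on the unswapped arrays (0.14). Under the channel reading the average was 0.04 and the old estimate -0.03, neither called.

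Slc25a53, a member of the carrier family, lies on chrX:136981116-137038302 and was also measured by 1 feature. Its log2 ratios were 0.08, 0.09 and 0.50 on the old arrays, 0.13, 0.14 and 0.52 in young bone and 0.17 and 0.58 in young marrow, where replicate 3 had no value. All 8 values were above 0, a pattern of 1 of 49 members and 2.24% of all genes, and the 3 highest were on old replicate 3 and on the swapped arrays of the young groups. The average over the groups was 0.31 ± 0.08 (SE, n = 8 arrays; adjusted p = 0.037), a ratio of 1.24. It was the member that rose in the average, beside Mrps10 which fell; 6.24% of all genes were called there, 2.91% higher and 3.33% lower in castrated mice. The group estimates were 0.25 in old specimens, 0.29 in young bone and 0.38 in young marrow, with adjusted p of 0.29, 0.39 and 0.31. The average call was lost without any 1 of the 3 young bone arrays or without young marrow replicate 1 or 2, with adjusted p between 0.062 and 0.37, and also in a fit per feature (0.067) and on the unswapped arrays (0.28). Under the channel reading the average was -0.11, which was not called.

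Mrpl33, a protein of the large subunit, had the smallest p among the Mrpl genes in the average and rested on 6 features, more than any other member. Its log2 ratios were -0.53, -0.32 and -0.07 on the old arrays, -0.16, -0.28 and -0.12 in young bone and -0.24, -0.20 and 0.00 in young marrow. The old arrays overlapped those of both young groups. The average was -0.21 ± 0.06 (SE, n = 9 arrays; adjusted p = 0.075), and the old estimate was -0.30 ± 0.11 (SE, n = 3 arrays; adjusted p = 0.18). The average was called with no dye term (adjusted p = 0.04), with arrays scaled to a common SD (0.044) and without old replicate 3 (0.02), so its place near the threshold turned on the setting. Fitted singly, the 6 features gave averages between -0.11 and -0.28, and 1 of them had an adjusted p of 0.043.

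Promoter windows of 300 bases are given for Mrps10 and Slc25a53, the members called, and for Mrpl33 and Timm8b, the Mrpl and the Timm member with the smallest p in the average. Each spans the start of a RefSeq transcript (GRCm38.p6), with most of it before the start, 5′ to 3′ on the strand of the gene; Slc25a53 has a second window, not shown. Capitals mark matches to 3 motifs searched on both strands: CCGGAAG, a form of the binding site of ETS factors such as GABP, GCGCATG, the core of the site of NRF1, and AAGATGG, the core of the site of YY1. These factors are known regulators of nuclear genes for mitochondrial proteins, and none of the 3 motifs overlaps another in the windows shown.
Mrps10, chr17:47368947-47369246, plus strand: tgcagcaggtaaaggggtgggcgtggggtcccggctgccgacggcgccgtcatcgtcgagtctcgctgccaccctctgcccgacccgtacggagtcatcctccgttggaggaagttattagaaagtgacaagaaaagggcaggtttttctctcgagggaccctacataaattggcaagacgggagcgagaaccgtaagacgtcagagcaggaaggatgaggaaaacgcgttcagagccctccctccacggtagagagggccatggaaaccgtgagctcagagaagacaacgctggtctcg
Slc25a53, chrX:137038253-137038552, minus strand: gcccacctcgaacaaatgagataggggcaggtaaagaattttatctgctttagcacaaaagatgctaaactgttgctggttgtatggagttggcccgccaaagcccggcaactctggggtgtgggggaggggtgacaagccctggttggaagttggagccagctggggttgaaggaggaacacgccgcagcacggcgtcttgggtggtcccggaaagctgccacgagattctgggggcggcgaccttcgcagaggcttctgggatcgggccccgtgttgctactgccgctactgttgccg
Mrpl33, chr5:31613701-31614000, plus strand: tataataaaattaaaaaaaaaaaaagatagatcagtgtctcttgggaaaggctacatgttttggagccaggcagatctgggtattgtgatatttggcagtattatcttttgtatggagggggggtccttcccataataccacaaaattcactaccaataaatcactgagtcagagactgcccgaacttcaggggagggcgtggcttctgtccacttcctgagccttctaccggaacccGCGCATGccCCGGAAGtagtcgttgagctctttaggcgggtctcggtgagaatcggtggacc
Timm8b, chr9:50603651-50603950, plus strand: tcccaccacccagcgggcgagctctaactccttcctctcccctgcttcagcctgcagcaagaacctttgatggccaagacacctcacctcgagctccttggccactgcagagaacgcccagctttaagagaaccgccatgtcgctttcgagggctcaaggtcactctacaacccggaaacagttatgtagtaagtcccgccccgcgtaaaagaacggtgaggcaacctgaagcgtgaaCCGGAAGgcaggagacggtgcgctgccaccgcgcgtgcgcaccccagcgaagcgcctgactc

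The window of Mrpl33 held an NRF1 and an ETS match, that of Timm8b an ETS match, and those of Mrps10 and Slc25a53 none of the 3 motifs. The Mrps10 window begins inside the gene span given above, so bases before the start of that span were not searched. RefSeq windows were found for 45 of the 49 members, 50 windows in all. The ETS motif was in 16 of 50 (32.0%), against 8.9% of all 32851 windows of the same length. It was in 37.0% of Mrpl and Mrps windows, 37.5% of Timm and Tomm windows and 21.4% of Slc25 windows. The YY1 motif was in 18.0% of member windows, against 6.3% of all, and the NRF1 motif in 4.0%, against 3.9%. These matches are descriptions of letters, and binding was not measured.

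**Figure D2:**
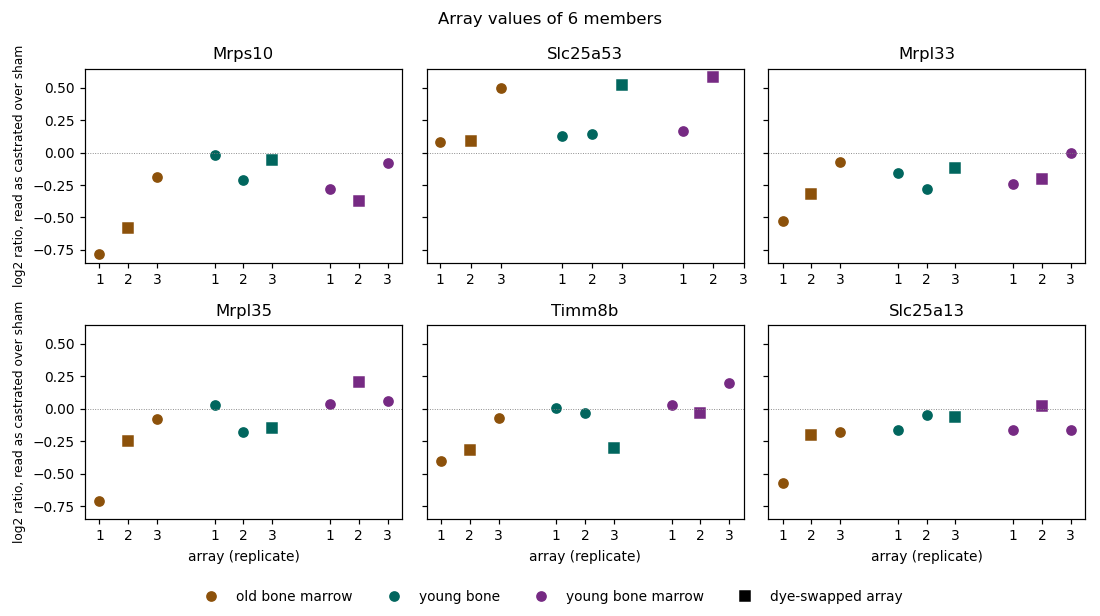
Log2 ratios of 6 members on each array, with old specimens, young bone and young bone marrow from left to right; squares are dye-swapped arrays. Mrps10 is below 0 on all 9 arrays and Slc25a53 above 0 on the 8 arrays with a value.

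Beside Mrpl33, the large-subunit genes with the smallest p in old specimens were Mrpl40 and Mrpl35. Mrpl35 had -0.71, -0.25 and -0.08 on the old arrays, 0.03, -0.18 and -0.15 in young bone and 0.04, 0.21 and 0.06 in young marrow. Its old values were all below its young marrow values, with old replicate 1 far lower than the other arrays. The old estimate was -0.33 ± 0.12 (SE; adjusted p = 0.18), between -0.48 and -0.16 without single arrays, and Mrpl40 had an old estimate of -0.26 ± 0.09 (adjusted p = 0.18). Mrpl40 read -0.41, -0.24 and -0.25 on the old arrays, against -0.17, -0.32 and 0.15 in young bone and -0.08, 0.14 and 0.02 in young marrow. In young marrow the Mrpl genes with the smallest p were Mrpl37 at 0.19 and Mrpl30 at 0.14, with adjusted p of 0.43 and 0.60.

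Mrpl42, also listed as a large-subunit protein, had 0.17, 0.05 and 0.04 on the old arrays, -0.23, 0.12 and -1.01 in young bone and -0.04, -0.15 and 0.08 in young marrow. The value of -1.01 on young bone replicate 3, a swapped array, was the lowest of any member on any array. The SD of the 3 young bone values themselves was 0.58. The young bone estimate was -0.44 ± 0.13 (SE, n = 3 arrays; adjusted p = 0.20), and it was -0.11 without young bone replicate 3. With the replicate number as a block it was -0.48 (adjusted p = 0.034). Under the channel reading it was 0.36.

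Among the small-subunit genes, Mrps18c had -0.23, -0.20 and 0.02 on the old arrays, -0.17, -0.39 and -0.23 in young bone and 0.09, 0.03 and 0.18 in young marrow. All young bone values were below 0 and all young marrow values above 0. The young bone estimate was -0.27 ± 0.09 (SE; adjusted p = 0.25), and the difference of young bone minus young marrow was -0.36 ± 0.13 (SE; adjusted p = 0.74). Mrps14 was alike, with -0.14, -0.24 and -0.14 in young bone and 0.09, 0.06 and 0.34 in young marrow, and a difference of -0.34 (adjusted p = 0.86). In old specimens the next smallest p were those of Mrps21, at -0.47, -0.32 and -0.02 on the 3 arrays, and Mrps16, at -0.44, -0.32 and 0.08. Their estimates were -0.26 and -0.24, with adjusted p of 0.24 and 0.26. Both rested on old replicates 1 and 2: without single arrays Mrps21 ran from -0.39 to -0.17 and Mrps16 from -0.38 to -0.12. Mrps27, a small-subunit protein with pentatricopeptide repeats, had 0.24 in young marrow (adjusted p = 0.41).

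The small Tim chaperones Timm8b and Timm10, which escort hydrophobic precursors across the intermembrane space, had estimates below 0 in old specimens, while Timm17b and Timm21, parts of the TIM23 translocase, had estimates above 0. Timm8b read -0.40, -0.32 and -0.07 on the old arrays, 0.01, -0.03 and -0.30 in young bone and 0.03, -0.03 and 0.20 in young marrow, and its old estimate was -0.29 ± 0.09 (SE; adjusted p = 0.16). Timm10 read -0.22, -0.35 and -0.15 on the old arrays, with an estimate of -0.24 ± 0.10 (SE; adjusted p = 0.23). Timm21 read -0.01, 0.24 and 0.19 on the old arrays, -0.14, -0.15 and -0.11 in young bone and 0.01, 0.25 and 0.20 in young marrow. Its old estimate was 0.16 ± 0.09 (SE; adjusted p = 0.34), and its difference of young bone minus young marrow was -0.29 (adjusted p = 0.84). Timm17b read 0.03, 0.22 and 0.14 on the old arrays, -0.11, 0.02 and -0.08 in young bone and 0.05, 0.27 and 0.19 in young marrow. For both genes the young bone arrays were the lowest 3 of the 9. Timm44, which anchors the import motor to TIM23, showed neither pattern, with -0.11, -0.01 and 0.02 on the old arrays, an old estimate of 0.00, and -0.13, -0.27 and 0.20 in young bone. These genes were set side by side after their values were seen, and differences between them were not tested.

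The 5 Tomm genes were below 0 on every old array, except Tomm6 on old replicate 3. Tomm20, the receptor for presequence proteins, read -0.36, -0.16 and -0.21 there, against 0.19, -0.09 and -0.23 in young bone and -0.03, 0.09 and 0.16 in young marrow. Its old estimate was -0.25 ± 0.10 (SE; adjusted p = 0.22). The small subunits Tomm5 and Tomm7 had old estimates of -0.23 and -0.22, with adjusted p of 0.22 and 0.26. Tomm6 was above 0 on old replicate 3 at 0.13, after -0.31 and -0.29 on old replicates 1 and 2. Tomm70a, the receptor for carrier precursors, had the old estimate nearest to 0 of the 5, -0.07, with -0.09, -0.05 and -0.12.

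The carriers lay mostly below 0 in old specimens and on both sides of 0 in the young groups. Slc25a13, the aspartate and glutamate carrier citrin, read -0.57, -0.20 and -0.18 on the old arrays, -0.16, -0.05 and -0.06 in young bone and -0.16, 0.02 and -0.16 in young marrow. Every old value was below every young value, and the old estimate was -0.29 ± 0.10 (SE; adjusted p = 0.16). A second Slc25a13 feature was left out, as it had a value on 1 young marrow array. It read -0.44 and -0.17 on old replicates 1 and 2, and -0.27, 0.03 and 0.13 in young bone. On that feature old replicate 2 thus lay above young bone replicate 1. Slc25a44, a carrier of branched-chain amino acids, had an old estimate of -0.22 (adjusted p = 0.23). Slc25a22, a glutamate carrier, was above 0 on all young bone arrays at 0.30, 0.15 and 0.12, with an estimate of 0.18 (adjusted p = 0.61). The ADP/ATP carrier Slc25a4, the form of heart and muscle, read -0.49, -0.02 and 0.07 on the old arrays, and Slc25a5, its widely expressed counterpart, -0.07, -0.26 and 0.00. The phosphate carrier Slc25a3 read -0.11, 0.02 and -0.15 on the old arrays. Slc25a17, a carrier of the peroxisomal membrane that the symbol rule takes in, read -0.45, -0.06 and 0.15 there.

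**Figure D3:**
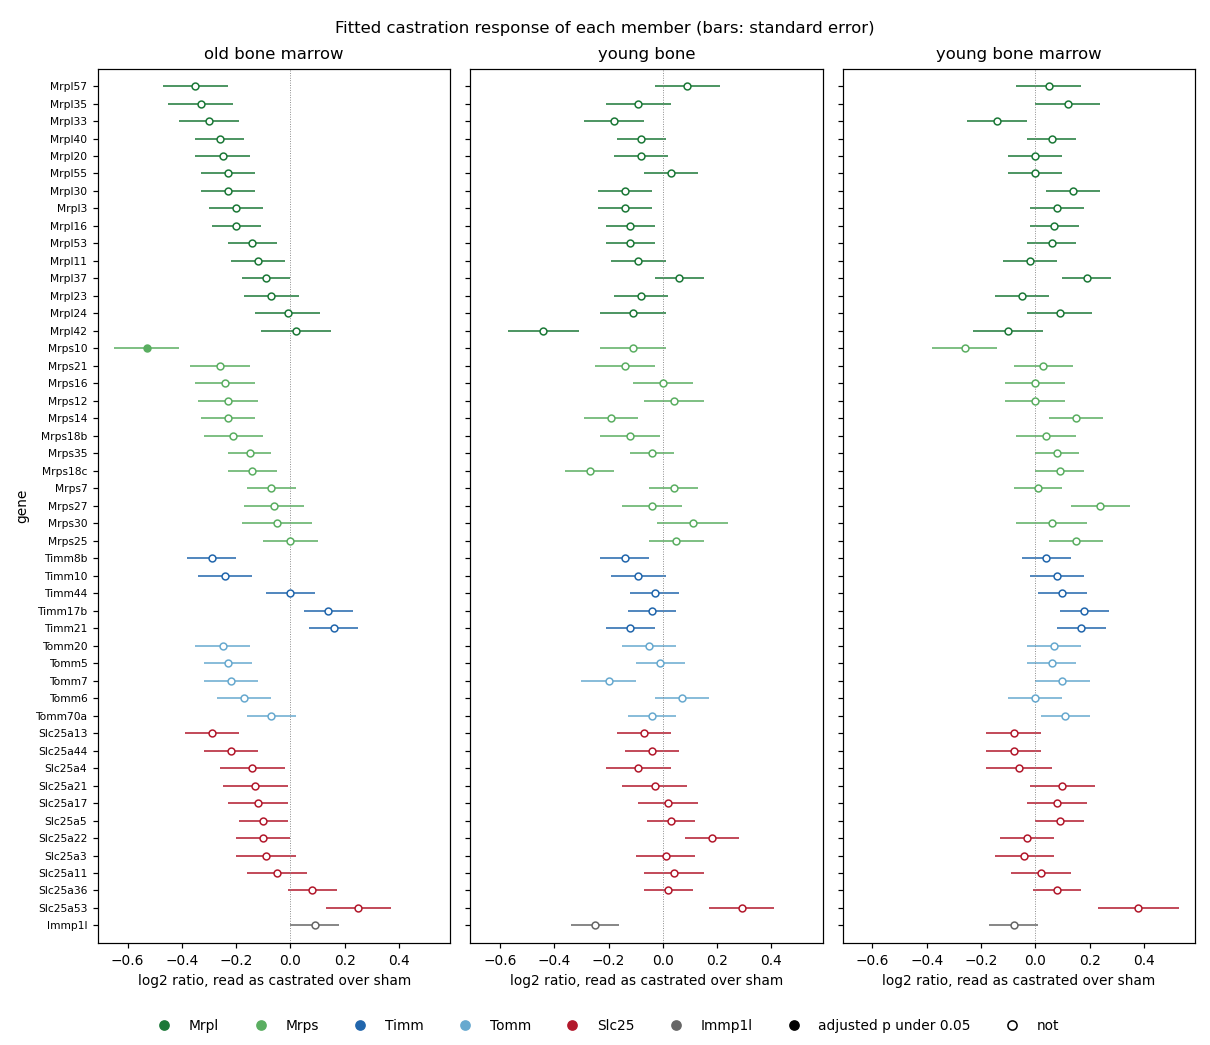
Fitted log2 ratios of the 49 members with standard errors, in old specimens, young bone and young bone marrow from left to right. Of the old estimates 41 of 49 lie left of 0, against 33 in young bone and 13 in young marrow.

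Immp1l showed how far a gene value can depend on its features. The averaged log2 ratios were 0.29, -0.07 and 0.14 on the old arrays, -0.22, -0.08 and -0.35 in young bone and 0.07, -0.12 and -0.10 in young marrow. The difference of old minus young bone was 0.34 ± 0.12 (SE; adjusted p = 0.60). On old replicate 2 a single feature had a value, and on that feature, the one with all 9 values, the difference was 0.16 ± 0.14 (SE; adjusted p = 0.75) and old replicate 1 lay below young bone replicate 2, at -0.20 against -0.11. The 2 features disagreed, with -0.20 and 0.78 on old replicate 1 and 0.32 and -0.52 on young marrow replicate 3, and had opposite signs on 3 arrays. The features of Slc25a36 had opposite signs on 5 arrays. For the other 10 genes with several features, the range between features was at most 0.35 on any array.

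**Figure D4:**
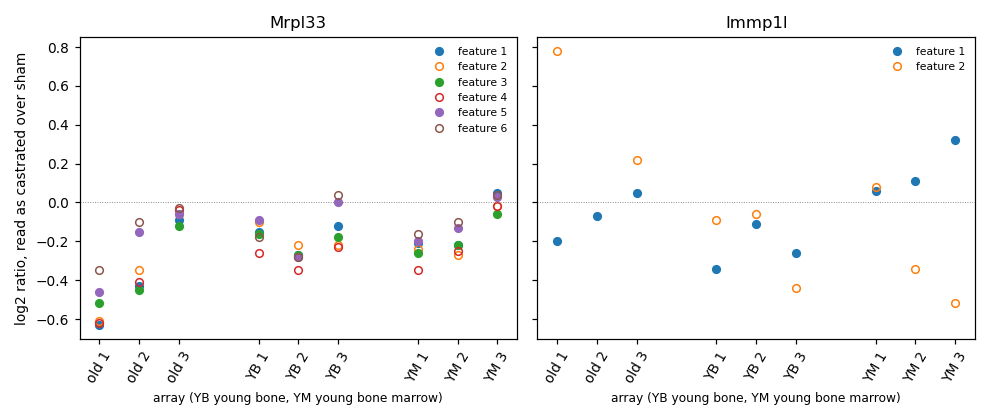
Log2 ratios of the separate features of Mrpl33 (left) and Immp1l (right) on each array, 1 colour per feature. The 6 Mrpl33 features lie within 0.35 of each other on every array, and the 2 Immp1l features differ by up to 0.98.

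Differences between groups were tested directly. In old specimens minus young marrow the median over the members was -0.22, against -0.10 over all genes. Estimates below 0 were 46 of 49 (93.9%), against 67.2% of all genes. They made up 94.2% of respiratory chain genes and 93.6% of cytosolic ribosomal protein genes, so this was not particular to the members. No member was called, where 0.0209% of all genes were called, and 10 members had an unadjusted p under 0.05 (13.3% of all genes). The smallest p were those of Mrpl30 at -0.37, Mrpl35 at -0.45 and Mrpl40 at -0.33, each with an adjusted p of 0.37. With the replicate number as a block, again no member was called, and 13 members had an unadjusted p under 0.05 with an estimate below 0 (26.5%, against 10.6% of all genes). In old specimens minus young bone the median was -0.11, against -0.05 over all genes. No member was called there, where 0.0419% of genes were called, and 5 members had an unadjusted p under 0.05 (7.37% of all genes). Mrpl57 had -0.44 (adjusted p = 0.64). In young bone minus young marrow the median was -0.12, against -0.02, with no member called (0.0% of genes) and 3 members at an unadjusted p under 0.05 (5.47% of all genes). All 3 differences share arrays, so they are not separate pieces of evidence.

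On the array values themselves, 19 of 49 members had every old value below every young marrow value (38.8%, against 15.1% of all genes), and none had the opposite order (0 of 49, against 6.97%). They were 9 Mrpl, 4 Mrps and 4 Tomm genes with Slc25a13 and Timm8b. The count was 19 again without old replicate 1 (against 16.7% of genes), 34 without old replicate 3 (69.4%, against 31.8%), 9 with centred arrays (18.4%, against 8.84%) and 0 under the channel reading (against 2.12%). In 10 of 49 members every young marrow value was above every young bone value (20.4%, against 9.07%), and in 0 the reverse (against 4.31%). Old values lay above all young bone values for Immp1l, Timm17b and Timm21 (3 members, against 3.69% of genes) and below them for Mrpl20, Mrps7, Slc25a13 and Slc25a22 (4 members, against 5.34%). Below 0 on every old array were 25 members (51.0%, against 28.3%), 10 of 15 Mrpl and 4 of 5 Tomm among them. That count was 21 with centred arrays (42.9%, against 18.7%), 39 without old replicate 3 (79.6%, against 47.8%) and 1 under the channel reading (2.04%, against 11% of all genes). As deposited, 42.3% of respiratory chain genes and 23.4% of cytosolic ribosomal protein genes were below 0 on every old array.

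**Figure D5:**
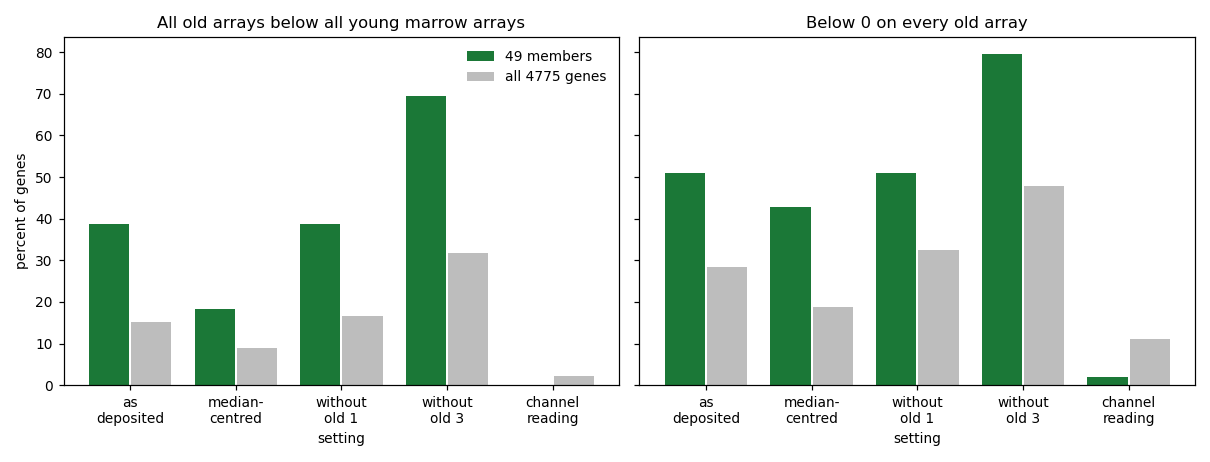
Share of the 49 members, beside the share of all 4775 genes, with 2 patterns of array values under 5 settings. The share of members with every old value below every young marrow value is 38.8% as deposited, 18.4% after centring and 0.0% under the channel reading.

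Of other nuclear genes for mitochondrial proteins, on 4 lists, none was called in any of the groups or in the average. Of 22 translation factors and ribosome proteins without an Mrp symbol, 7 were measured, with medians of -0.15 in old specimens, -0.04 in young bone and 0.05 in young marrow. The smallest p in the average were those of Slirp, an RNA-binding partner of Lrpprc, at -0.15 (adjusted p = 0.16), and Gfm1, an elongation factor, at -0.10 (adjusted p = 0.33). Of 20 import, processing and folding genes, 8 were measured, with all 8 below 0 in old specimens (median -0.14) and all 8 above 0 in young marrow (median 0.08). Of 10 further carriers and porins, 5 were measured, with medians of -0.12, -0.15 and -0.10, below 0 also in young marrow, where the members' median was 0.06; Mpc1, a subunit of the pyruvate carrier, averaged -0.19 (adjusted p = 0.13) and the porin Vdac1 -0.17 (adjusted p = 0.27). Of 18 genes for mitochondrial DNA expression and biogenesis, 11 were measured, with medians of -0.06, 0.01 and 0.08.

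The 52 respiratory chain genes had medians of -0.15 in old specimens, -0.10 in young bone and 0.08 in young marrow, and the 47 cytosolic ribosomal protein genes -0.03, 0.06 and 0.12. Every old value lay below every young marrow value in 26.9% of the respiratory chain genes and in 27.7% of the cytosolic ribosomal genes, beside 38.8% of the members. In the same order, the shares were 17.3%, 12.8% and 18.4% with centred arrays. They were 26.9%, 29.8% and 38.8% without old replicate 1, and 65.4%, 57.4% and 69.4% without old replicate 3. Old estimates lay below 0 in 90.4%, 59.6% and 83.7%. Values on every old array were below 0 in 86.5%, 51.1% and 79.6% without old replicate 3, and in 25.0%, 8.51% and 42.9% with centred arrays. Every young marrow value lay above every young bone value in 23.1%, 14.9% and 20.4%. These shares were not compared by a test.

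Lists of markers of other cell types were set beside these values. The 7 B lymphocyte markers measured had median estimates of 0.94 in old specimens, 0.82 in young bone and 1.0 in young marrow, and the 6 granulocyte markers -0.54, -0.55 and -0.50, so both lists were alike across the groups. The 7 skeletal muscle markers differed, with 0.41 in old specimens, -0.66 in young bone and -0.06 in young marrow, and medians of 0.93, 0.11 and 0.23 on the old arrays. The 4 adipocyte markers had 1.08, 0.73 and 0.33, the 4 bone matrix markers -0.07, 0.72 and 0.59, the 5 erythroid markers -0.13, 0.00 and 0.08, and the 12 markers of dividing cells -0.13, 0.00 and 0.13. The medians of the dividing-cell and erythroid lists have the order of the members' medians, low in old specimens and high in young marrow. The medians of all genes have that order too, with -0.06 in old specimens, -0.01 in young bone and 0.02 in young marrow. So do those of the respiratory chain and cytosolic ribosomal genes given above. The part of these cell types in the values of the mitochondrial genes was not tested.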

How the data were processed

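The deposited values are log ratios, read as log2, 1 per feature and array. Direction, log base, background treatment and normalization are not given in the sources used here. Per the labels' protocols, aminoallyl cDNA of total RNA carried Cy3 or Cy5. The deposited log2 ratios were used without further scaling. Of 11552 features, 8050 had 1 gene, 672 several and 2830 none by GEO's platform annotation, and 8885 had values on 2 or more arrays of each group; features of a gene were averaged (4775 genes). A moderated linear model (limma 3.58.1, R 4.3.3) held group and dye over all 9 arrays, with standard errors exact for missing values, and was tested on simulated data. Subfamilies are described by counts and medians, with no test. The members, lists and tests were chosen with earlier results of these data known. Members named with values were those called, the 3 smallest p per subfamily and group, the 3 smallest p per difference and Immp1l; further members were named after their values were seen. Replicates are mouse pairs, and their number limits precision, as intensities were not used. Arrays with the same replicate number deviated together in all 3 pairs of old specimens and young marrow (r of 0.50, 0.20 and 0.27), but not in all pairs with young bone. Dye was not taken out of these correlations. The swapped array was replicate 2 in both old specimens and young marrow, but replicate 3 in young bone. The part of dye in these correlations was not tested. Beyond dye, the labels do not say what a number shares.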

Additional observations from a re-analysis of the deposited data

How the results depend on the processing

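The channel reading turns the B lymphocyte and granulocyte medians on the 3 swapped arrays alone. Under it 0 members were called in old specimens and 0 in the average, against 1 and 2 as reported. It left 0.0% of all genes called in each comparison, so the loss of calls was not particular to the members. The averages turned to 0.04 for Mrps10 and -0.11 for Slc25a53. The medians became 0.00 for all members in young marrow, 0.01 for Mrpl in young marrow, -0.02 for Mrpl and -0.02 for Tomm in old specimens, and -0.04 for Timm in young bone and in young marrow; 33 of 73 named values changed sign. On the 6 unswapped arrays 0 members were called in old specimens and 0 in the average, beside 0.546% and 3.84% of all genes. The Mrpl median in young marrow was 0.00 there. Centred arrays and a fit per feature each gave 0 called members in old specimens, beside 1.49% of all genes and 0.732% of all features. Genes with values on all 9 arrays gave 1 called member in the average, beside 6.76% of these genes. The fit on unswapped arrays held fewer arrays, and that on genes with all 9 values fewer genes. The causes of these changes were not tested. With no dye term and with arrays scaled to a common SD, 3 members were called in the average, Mrpl33 added in each. Of all genes 8.29% and 8.04% were called there, against 6.24% as reported. With the replicate number as a block, 1 member was called in young bone (Mrpl42), beside 1.01% of all genes. In the average 4 members were called (Mrpl33 and Mrpl42 added), beside 7.23% of all genes. No other call of a member changed. Same-number arrays correlated between -0.35 and 0.50, 4 of 9 pairs above 0.1, among them all 3 of old specimens with young marrow. Those 2 groups also have the same dye layout by number, and young bone does not. Leaving out single arrays gave 0 to 7 called members in old specimens, 0 to 3 in the average and 0 to 1 in old minus young marrow, and an old Timm median between -0.06 and 0.11. The 7 were Mrpl33, Mrpl35, Mrps10, Mrps12, Mrps16, Mrps21 and Slc25a13, without old replicate 3, where 11.5% of all genes were called. The 3 in the average and the 1 in old minus young marrow also came without old replicate 3, beside 8.86% and 4.08% of all genes. Called genes over the whole table numbered 67 in old specimens as reported, 26 on unswapped arrays, 11 without old replicate 2 and 549 without old replicate 3, and 298 in the average, against 183 on unswapped arrays and 120 without young marrow replicate 2. Signal over background is unknown.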
